A study of Homo sapiens with 9 samples.

Results

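Chaperone genes of A549 cells were followed across 3 treatment groups. The set took every gene whose symbol names a heat shock protein of the HSPA, HSPB, HSP90 or HSPH class, HSPD1 or HSPE1, a DNAJA, DNAJB or DNAJC protein, a subunit of the TRiC complex, BAG1 to BAG6, or the transcription factors HSF1 and HSF2. The endoplasmic reticulum stress genes HSPA5, DNAJB9 and DNAJC3 were left out. The rule found 85 genes among 51796 gene identifiers in the count table, and it used names only, not measured values. Some of these genes work in mitochondria or the endoplasmic reticulum, so the set reaches beyond the cytosol.

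A549 is an established epithelial line from a human lung adenocarcinoma, cultured here as 1 line without a genetic change named in the labels. RNA was sequenced after 7 days in DMSO (the solvent control), in 1 µM GSK591, an inhibitor of the arginine methyltransferase PRMT5, or in 1 µM MS023, an inhibitor of the type I arginine methyltransferases, with 3 libraries each. Control plates were seeded with 0.2 and drug plates with 0.4 times 1e5 cells, so treatment and seeding cannot be told apart in a comparison with DMSO. RNA was extracted in triplicate for each condition, and no label names separate cultures, so a p-value here reflects library-to-library spread only, and that spread may be technical. In bulk RNA, fewer cells carrying a transcript and less of it per cell cannot be told apart.

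Chaperones bind unfolded protein chains and let them fold without clumping. HSP70 proteins do this in cycles of ATP use that J proteins (the DNAJ families) start and that nucleotide exchange factors, such as the HSP110 and BAG proteins, reset. HSP90 completes the folding of kinases and receptors, TRiC encloses actin and tubulin in a chamber, and small heat shock proteins hold aggregating proteins without ATP. When unfolded protein accumulates, HSF1 is freed and binds heat shock elements, inverted repeats of GAA, in front of chaperone genes.

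Heat shock elements were searched in the 250 bases before each gene's start, in the RefSeq promoter table for GRCh38.p14, where 73 of the 85 genes had an entry. A run of 3 units, GAANNTTCNNGAA or TTCNNGAANNTTC, which are each other's reverse complement, stood in 3 of the 73 (4.11%) and in 120 of 27305 promoters in the table (0.439%). A pair of units, GAANNTTC or TTCNNGAA, stood in 16 of the 73 (21.9%) and in 11.7% of the table, and every run of 3 contains such pairs. Each of these shorter forms is its own reverse complement, so a match on one strand is a match on the other. The stretches below surround the matches of some of the genes that the results return to, on the strand of the gene, 5′ to 3′, with the matched units in capitals. HSPA8 is the constitutive HSP70, HSPA1A and HSPA1B are the classical inducible pair, HSPB8 had the largest fitted rise of the set, DNAJA1 moved in opposite directions under the 2 inhibitors, and DNAJB6 holds a run of 3 units.
HSPA8 (chr11:123062154-123062386, minus strand): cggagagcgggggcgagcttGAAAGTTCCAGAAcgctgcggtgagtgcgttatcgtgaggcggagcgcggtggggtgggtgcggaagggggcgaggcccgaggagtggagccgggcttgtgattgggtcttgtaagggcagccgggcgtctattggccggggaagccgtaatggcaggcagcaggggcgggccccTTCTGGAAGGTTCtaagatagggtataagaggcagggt
HSPA1A (chr6:31815412-31815469, plus strand): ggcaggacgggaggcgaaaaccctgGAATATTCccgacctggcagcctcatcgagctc
HSPA1B (chr6:31827608-31827665, plus strand): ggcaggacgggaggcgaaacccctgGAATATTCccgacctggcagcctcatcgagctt
HSPB8 (chr12:119178818-119178875, plus strand): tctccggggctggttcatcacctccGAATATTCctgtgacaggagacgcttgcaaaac
DNAJA1 (chr9:33025050-33025107, plus strand): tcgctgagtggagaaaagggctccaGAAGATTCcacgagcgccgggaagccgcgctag
DNAJB6 (chr7:157336848-157336910, plus strand): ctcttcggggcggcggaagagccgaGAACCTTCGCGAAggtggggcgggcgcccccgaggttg
The HSPA8 stretch holds a run of 3 units near each end. Beside HSPA8 and DNAJB6, the other gene with such a run is HSPA6, whose stretch is not printed. The HSPA1A and HSPA1B stretches have 56 of 58 bases in common. A match of letters is a description and does not show that a factor was bound.

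Library totals ran from 31398075 to 51244525 counts. Mitochondrial rRNA, a trace left after depletion, reached 932.5 CPM (counts per 1e6 reads after TMM scaling of library sizes) in GSK591 replicate 3. Among the other 8 libraries it ranged from 0.410 to 20.7 CPM. DMSO replicate 1 had the most among the controls, so results are also given without those 2 libraries where that changes a call. The 20 most abundant genes took 9.13% to 9.55% of counts in DMSO, 11.0% to 11.6% in GSK591 and 10.1% to 10.2% in MS023. All 8 epithelial markers had counts in every library, at a sum of 6406 to 6532 CPM in DMSO, 7688 to 7953 in GSK591 and 5137 to 5334 in MS023. KRT8, KRT18 and KRT7 made up most of that sum, while ESRP1 lay between 0.186 and 0.703 CPM in every library. All 8 were tested against DMSO: 3 were called higher and 3 lower in GSK591, and 1 higher and 4 lower in MS023. The 3 lower in GSK591, where the sum was highest, were EPCAM, CLDN7 and ESRP1. EPCAM changed by -1.07 ± 0.09 (edgeR adjusted p = 5.99e-08), CLDN7 changed by -1.85 ± 0.16 (edgeR adjusted p = 9.43e-08) and ESRP1 changed by -1.32 ± 0.28 (edgeR adjusted p = 0.000889). Leukocyte markers summed to 15.4 to 28.1 CPM, most of it CD68, and fibroblast and endothelial markers to 8.98 to 30.5 CPM, most of it COL1A1. PTPRC, CD3E and DCN were at or near 0 in every library, but other markers of these lists were not. Of 7 leukocyte markers, 3 had enough counts to test against DMSO: 3 were called higher in GSK591 and 2 lower in MS023. Of 6 fibroblast and endothelial markers found, 3 had enough counts to test. Of these, 1 was called higher and 2 lower in GSK591, and 2 were called higher in MS023.

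The whole set was a small part of the RNA. It took 1.498% ± 0.0456 of counts in DMSO, 1.51% ± 0.0265 in GSK591 and 1.43% ± 0.0237 in MS023 (SD, n = 3). HSP90AA1, HSP90AB1, HSPA8 and HSPD1 alone made up 45.1% to 46.4% of the set's counts in every library. Per length, in the authors' FPKM (fragments scaled by gene length and depth), 16 of the 85 genes averaged at least 100 FPKM in DMSO, 53 at least 10 FPKM, and 17 under 1 FPKM. HSP90AA1 led at 688 ± 52.1 FPKM (SD, n = 3), followed by HSPA8 at 612 ± 40.9, HSP90AB1 at 504 ± 13.6, HSPD1 at 472 ± 43.2 and HSPE1 at 306 ± 38.8. In GSK591, HSPA8 at 724 ± 38.3 FPKM stood above HSP90AA1 at 628 ± 21.7 FPKM. In MS023 the same 2 genes, at 625 ± 40.5 and 622 ± 31 FPKM, lay within their spread of each other.

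**Figure D1:**
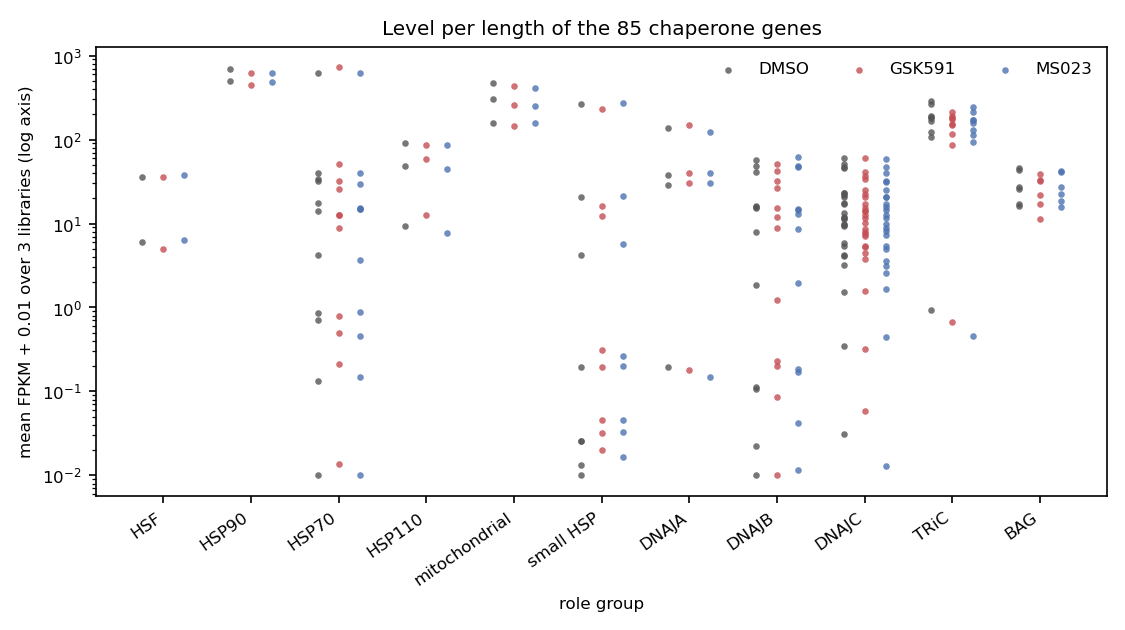
Each point is the mean FPKM of 1 chaperone gene over the 3 libraries of a group (0.01 added, log axis), with genes split by role group on the horizontal axis and colours for DMSO, GSK591 and MS023. HSP90, the mitochondrial group and all but 1 of the 9 TRiC genes lie high in every group, while the HSP70, small HSP and DNAJ families range from near 0 upward.

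A low-count filter kept 78 of the 85 genes for testing among 18292 genes. A gene was called when edgeR's quasi-likelihood test gave a Benjamini-Hochberg adjusted p under 0.05 over all 18292. In GSK591 against DMSO, 19 chaperone genes rose and 29 fell. Of all genes tested, 30.1% rose and 32.4% fell, against 24.4% and 37.2% of the chaperone genes. In MS023 against DMSO, 8 rose and 31 fell, 10.3% and 39.7% of the set, beside 25.1% and 25.9% of all genes. With libraries scaled by total counts in place of TMM, the split was 24 higher and 25 lower in GSK591, and 13 higher and 24 lower in MS023. Between the inhibitors, 27 were higher in MS023 and 21 lower, 34.6% and 26.9% of the set, beside 33.6% and 31.7% of all genes. That balance turned in several alternatives: 18 higher and 27 lower with a 1 CPM minimum, 25 and 27 with only the 6 libraries compared, and 18 and 19 in unfiltered FPKM. It also turned without GSK591 replicate 1 (21 and 22) and without MS023 replicate 1 (22 and 23). Without GSK591 replicate 2 it was even (21 and 21). Without DMSO replicate 1 and GSK591 replicate 3 the counts were 17 higher and 29 lower in GSK591, and 11 higher and 28 lower in MS023.

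The changes were mostly small. The median log2 change of the 78 genes was -0.08 in GSK591 and -0.05 in MS023, beside 0.01 and -0.003 over all genes tested. A called change of at least 0.5 on the log2 scale was found for 10 of the 78 genes in GSK591 (12.8%), beside 29.1% of all genes. It was found for 7 in MS023 (8.97%), beside 19.5%, and for 10 between the inhibitors (12.8%), beside 33.4%. The 2 comparisons with DMSO share their control libraries. Genes that were called and whose 2 groups had no overlapping libraries numbered 46 of 78 in GSK591 (59%), beside 60.2% of all genes. They numbered 34 in MS023 (43.6%), beside 48.8%, and 48 between the inhibitors (61.5%), beside 63.8%.

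**Figure D2:**
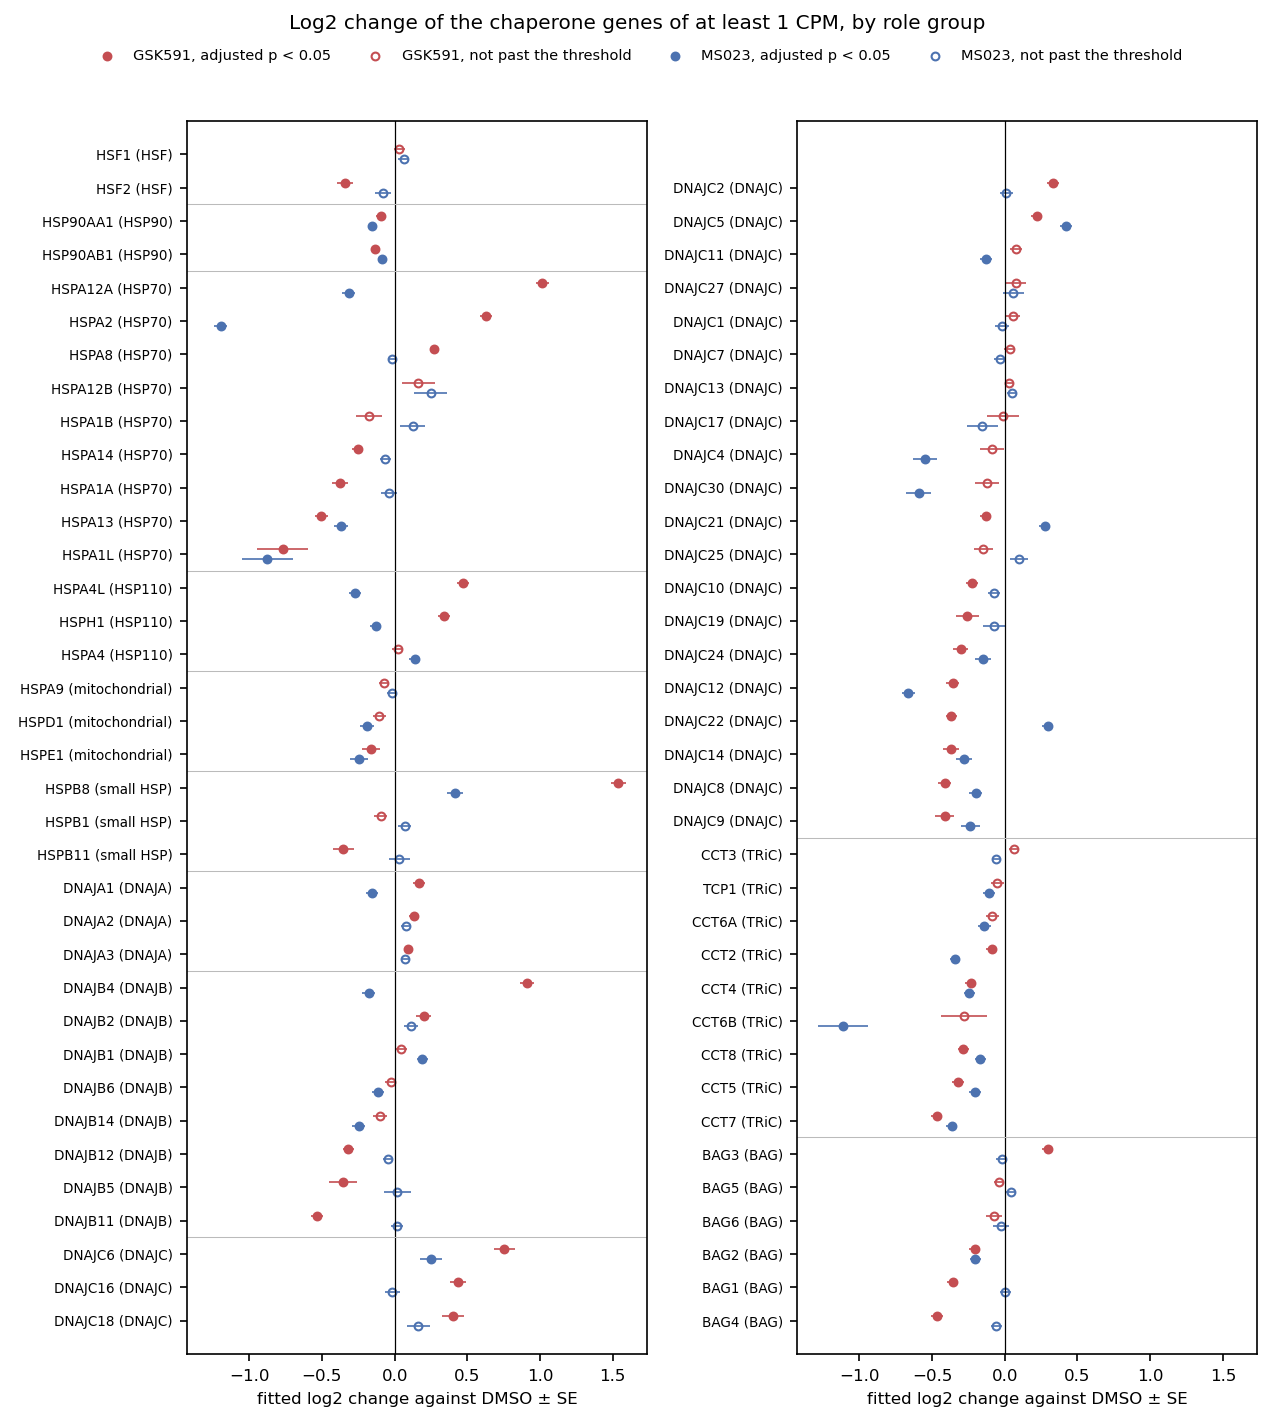
Horizontal position is the fitted log2 change against DMSO with its standard error, for each chaperone gene of at least 1 CPM, grouped by role; filled points passed an adjusted p of 0.05 and open points did not. HSPB8 reaches 1.54 ± 0.05 in GSK591 and HSPA2 -1.20 ± 0.04 in MS023, while most genes lie within 0.5 of zero.

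Neither heat shock factor was called higher against DMSO. HSF1, the factor that switches on chaperone genes after heat, stood at 87.1, 79.8 and 79.6 CPM in the DMSO libraries, 86.1, 81.3 and 84.6 in GSK591 and 84.2, 85.8 and 87.2 in MS023. All 3 groups overlapped, and its log2 difference from DMSO was 0.03 ± 0.04 (edgeR adjusted p = 0.495) in GSK591 and 0.06 ± 0.04 (edgeR adjusted p = 0.211) in MS023. In MS023 it passed the test without DMSO replicate 1 (0.0171) and without DMSO replicate 1 and GSK591 replicate 3 (0.0201), and when scaled by total counts (0.0425), as a rise in each case. HSF2, a related factor active in development and in proteasome stress, stood at 17.01, 18.2 and 17.8 CPM in the DMSO libraries, 14.2, 14.4 and 13.3 in GSK591 and 16.5, 17.4 and 16.5 in MS023. The GSK591 libraries lay below all others, with a log2 change of -0.34 ± 0.06 (edgeR adjusted p = 8.34e-05). In MS023 the difference was -0.08 ± 0.05 (edgeR adjusted p = 0.253), and the direct comparison placed MS023 above GSK591 by 0.26 ± 0.06 (edgeR adjusted p = 0.000721). RNA levels do not report the activity of either factor.

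Among 10 tested HSP70 genes, 3 rose and 4 fell in GSK591, and 4 fell and none rose in MS023. This and the later family counts are to be read against all genes tested, of which 30.1% rose and 32.4% fell in GSK591. In MS023, 25.1% of all genes rose and 25.9% fell. The rise of most RNA was that of HSPA8 (ENSG00000109971, hg19 chromosome 11, 122928197 to 122933938), the constitutive HSP70 that also uncoats clathrin vesicles. Its levels were 1443, 1487 and 1369 CPM in the DMSO libraries, 1732, 1727 and 1733 in GSK591 and 1456, 1401 and 1388 in MS023. Each GSK591 library lay above every other library, with a log2 change of 0.27 ± 0.03 (edgeR adjusted p = 1.25e-06). In MS023 the groups overlapped at -0.02 ± 0.03 (edgeR adjusted p = 0.624), and MS023 lay below GSK591 at -0.29 ± 0.03 (edgeR adjusted p = 4.96e-07). The HSPA8 locus also holds small nucleolar RNA genes in its introns, the most abundant of which had 294 counts beside 574286 for HSPA8.

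HSPA2 and HSPA12A had the widest separation between the inhibitors. HSPA2 (ENSG00000126803, hg19 chromosome 14, 65002623 to 65009955), an HSP70 known best from sperm development, stood at 93.01, 102 and 97.1 CPM in the DMSO libraries, 154, 153 and 144 in GSK591 and 44.6, 41.1 and 41.4 in MS023. None of the 3 groups overlapped: GSK591 was highest and MS023 lowest. The log2 change was 0.63 ± 0.04 (edgeR adjusted p = 8.71e-09) in GSK591, -1.20 ± 0.04 (edgeR adjusted p = 2.54e-11) in MS023 and -1.82 ± 0.04 (edgeR adjusted p = 7.38e-14) for MS023 against GSK591. HSPA12A (ENSG00000165868, hg19 chromosome 10, 118430703 to 118502085), a distant HSP70 relative, stood at 26.3, 25.6 and 25.8 CPM in the DMSO libraries, 51.4, 55.01 and 50.5 in GSK591 and 21.2, 19.98 and 21.1 in MS023. It was about doubled in GSK591, 1.01 ± 0.04 on the log2 scale (edgeR adjusted p = 9.89e-11), and slightly lower in MS023, -0.32 ± 0.05 (edgeR adjusted p = 4.69e-05). The fall in MS023 was not called in the authors' FPKM (adjusted p = 0.0849 to 0.194), and the direct difference was -1.33 ± 0.05 (edgeR adjusted p = 2.93e-12).

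Neither gene of the classical inducible pair was called higher against DMSO. HSPA1A (ENSG00000204389, hg19 chromosome 6, 31783291 to 31785723) stood at 75.4, 88.3 and 84.4 CPM in the DMSO libraries, 66.04, 64.96 and 60.4 in GSK591 and 84.2, 79.1 and 78.5 in MS023. All GSK591 libraries lay below the others, with a log2 change of -0.38 ± 0.05 (edgeR adjusted p = 2.58e-05), while in MS023 the groups overlapped at -0.04 ± 0.05 (edgeR adjusted p = 0.585). HSPA1B (ENSG00000204388, hg19 chromosome 6, 31795512 to 31798031) stood at 47.3, 38.04 and 38.7 CPM in the DMSO libraries, 39.8, 34.3 and 35.6 in GSK591 and 40.3, 44.6 and 49.99 in MS023. Its differences from DMSO were -0.18 ± 0.09 (edgeR adjusted p = 0.0941) in GSK591 and 0.12 ± 0.09 (edgeR adjusted p = 0.254) in MS023, with overlapping libraries, and MS023 lay above GSK591 by 0.30 ± 0.09 (edgeR adjusted p = 0.00734). With no filter on low counts HSPA1B passed in both inhibitors, as a fall in GSK591 (0.000962) and a rise in MS023 (0.02), and the MS023 rise also passed without DMSO replicate 1 (0.0162) and without DMSO replicate 1 and GSK591 replicate 3 (0.0189). The 2 genes are near copies: 71.2% of the windows of 75 bases in the HSPA1A transcript and 73.2% of those in HSPA1B also occur in other genes, most often the other of the pair, so the division of reads between them is uncertain.

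HSPA1L (ENSG00000204390, hg19 chromosome 6, 31777396 to 31783437), a relative expressed mainly in testis that shares its promoter region with HSPA1A, was low at 2.78, 2.32 and 2.31 CPM in the DMSO libraries, 1.55, 1.199 and 1.57 in GSK591 and 1.64, 1.25 and 1.08 in MS023. It fell in both inhibitors, at -0.77 ± 0.18 (edgeR adjusted p = 0.00155) and -0.87 ± 0.18 (edgeR adjusted p = 0.000789), with every treated library below every control. It overlaps HSPA1A, which had 28741 counts beside its 654, so the division of reads between them is uncertain. HSPA13, an HSP70 relative of the endoplasmic reticulum membrane, stood at 78.6, 86.5 and 80.5 CPM in the DMSO libraries, 54.5, 59.97 and 58.6 in GSK591 and 63.5, 64.7 and 62.02 in MS023. Both treated groups lay below DMSO, with log2 changes of -0.50 ± 0.05 (edgeR adjusted p = 2.05e-07) and -0.37 ± 0.05 (edgeR adjusted p = 9.51e-06). HSPA14, a ribosome-associated HSP70, changed by -0.25 ± 0.04 (edgeR adjusted p = 4.1e-05) in GSK591 and differed by -0.07 ± 0.04 (edgeR adjusted p = 0.164) in MS023. HSPA12B differed by 0.16 ± 0.11 (edgeR adjusted p = 0.229) and 0.25 ± 0.11 (edgeR adjusted p = 0.0781). The strictly heat-inducible HSPA6 held 175 counts in all 9 libraries together and differed by 0.64 ± 0.41 (edgeR adjusted p = 0.189) in GSK591, where it passed without DMSO replicate 2 (0.0203), and by 0.15 ± 0.43 (edgeR adjusted p = 0.792) in MS023.

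The HSP110 proteins, exchange factors that recharge HSP70 with ATP, split by inhibitor. HSPH1 (ENSG00000120694, hg19 chromosome 13, 31710762 to 31736525) stood at 213, 219.9 and 209.9 CPM in the DMSO libraries, 268, 275 and 269.8 in GSK591 and 203, 189 and 196 in MS023. The 3 groups did not overlap, with GSK591 above DMSO by 0.34 ± 0.04 (edgeR adjusted p = 2.1e-06) and MS023 below it at -0.13 ± 0.04 (edgeR adjusted p = 0.0109). HSPA4L, a testis-enriched relative, stood at 41.6, 44.3 and 41.3 CPM in the DMSO libraries, 57.3, 59.4 and 59.4 in GSK591 and 35.96, 33.9 and 35.4 in MS023. It likewise rose in GSK591, 0.47 ± 0.04 (edgeR adjusted p = 1.43e-07), and fell in MS023, -0.27 ± 0.04 (edgeR adjusted p = 7.16e-05). HSPA4, the most abundant of the 3 per length, stood at 407, 422 and 405 CPM in the DMSO libraries, 417, 418 and 417 in GSK591 and 467, 436 and 455 in MS023. It differed by 0.02 ± 0.04 (edgeR adjusted p = 0.637) in GSK591 and rose by 0.14 ± 0.04 (edgeR adjusted p = 0.00572) in MS023. The small MS023 shifts of HSPH1 and HSPA4 were less firm. HSPH1 lost its call without DMSO replicate 2 (0.0684) and without MS023 replicate 2 (0.0876), when scaled by total counts (0.0791) and in FPKM (0.151 to 0.269), and HSPA4 lay on the other side of zero in FPKM, at a log2 difference of -0.08 (adjusted p = 0.164 to 0.176).

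**Figure D3:**
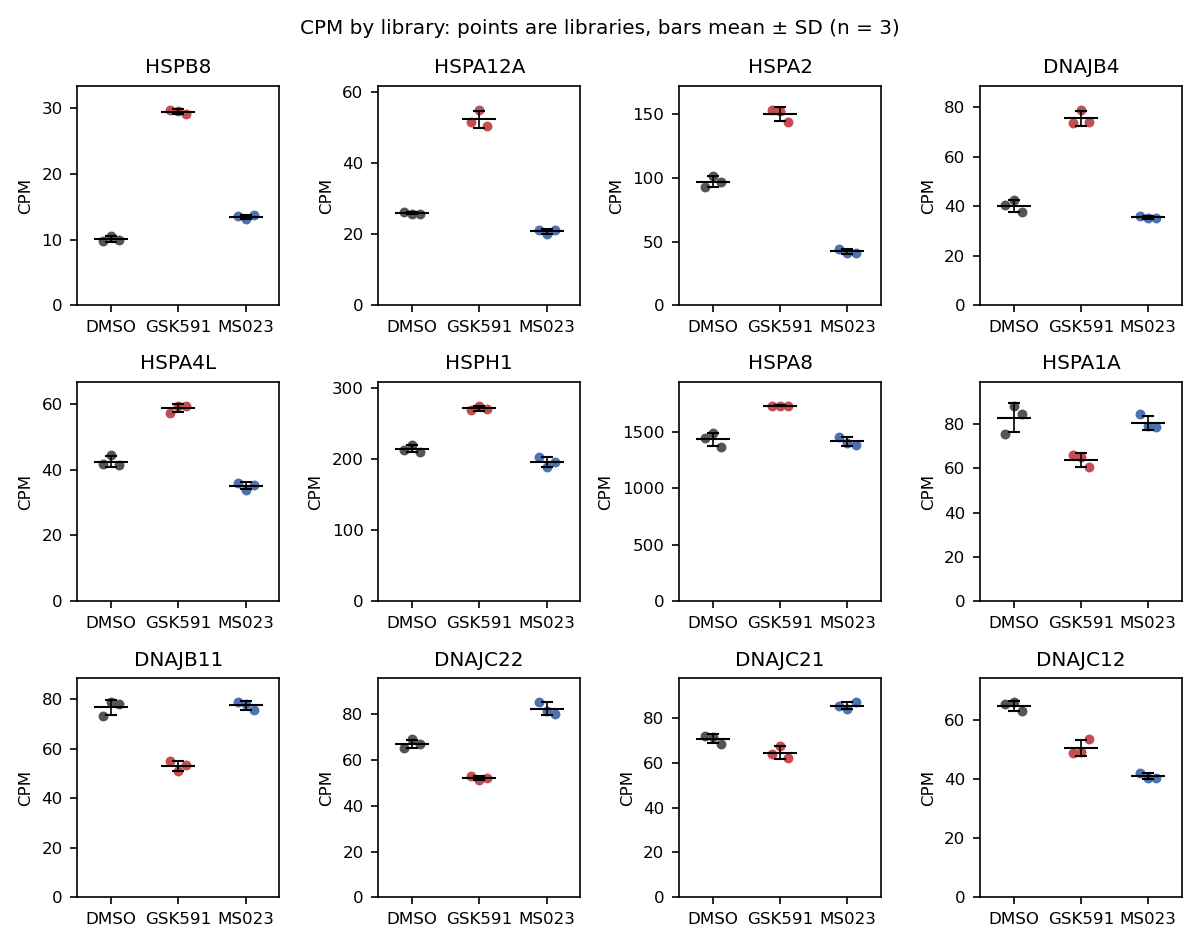
Each panel gives the CPM of 1 chaperone gene on an axis from 0, with 1 point per library and a bar at the mean ± SD of the 3 libraries of DMSO, GSK591 and MS023. HSPB8, HSPA12A, HSPA2, DNAJB4, HSPA4L and HSPH1 are highest in GSK591, HSPA1A and DNAJB11 are lowest there, and DNAJC22 and DNAJC21 are highest in MS023.

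Both cytosolic HSP90 genes fell a little in each inhibitor. HSP90AA1, the stress-inducible form, stood at 2638, 2923 and 2675 CPM in the DMSO libraries, 2576, 2574 and 2551 in GSK591 and 2542, 2415 and 2446 in MS023, and both treated groups lay below all 3 controls. Its log2 change was -0.10 ± 0.03 (edgeR adjusted p = 0.0144) in GSK591 and -0.15 ± 0.03 (edgeR adjusted p = 0.000857) in MS023. HSP90AB1, the constitutive form, stood at 1554, 1518 and 1447 CPM in the DMSO libraries, 1394, 1349 and 1364 in GSK591 and 1389, 1442 and 1432 in MS023, again with every treated library under every control. It changed by -0.14 ± 0.03 (edgeR adjusted p = 0.000586) and -0.08 ± 0.03 (edgeR adjusted p = 0.0209). The HSP90AA1 call in GSK591 ended in 9 of 20 alternatives, with an adjusted p of 8.43e-06 to 0.362 over them, including without DMSO replicate 2 (0.186), without GSK591 replicate 1 (0.0655) and without GSK591 replicate 3 (0.102). The HSP90AB1 call in MS023 ended in 12 of 20 (0.00449 to 0.263), including without DMSO replicate 1 (0.2100), without DMSO replicate 2 (0.126), without GSK591 replicate 1 (0.0535), without GSK591 replicate 3 (0.0668), without MS023 replicate 1 (0.0812), without MS023 replicate 3 (0.059) and without DMSO replicate 1 and GSK591 replicate 3 (0.2403).

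The mitochondrial genes showed small differences. HSPD1 and HSPE1, the HSP60 barrel and its HSP10 lid, are neighbours that share a promoter. The HSPE1 locus given with the FPKM lies within that of HSPD1, which had 458737 counts beside the 84908 of HSPE1. The division of reads between them is therefore uncertain. HSPD1 stood at 1202, 1385 and 1297 CPM in the DMSO libraries, 1178, 1211 and 1223 in GSK591 and 1205, 1094 and 1106 in MS023, and HSPE1 at 224, 268 and 245 CPM in the DMSO libraries, 223, 214 and 221 in GSK591 and 224, 198 and 200.2 in MS023. DMSO replicate 1 was the lowest control for both, and for HSPD1 the controls overlapped both treated groups. HSPD1 fell, a log2 change of -0.19 ± 0.05 (edgeR adjusted p = 0.00285) in MS023 and differed by -0.10 ± 0.05 (edgeR adjusted p = 0.0582) in GSK591, where it passed as a fall without DMSO replicate 1 (0.00641), without MS023 replicate 1 (0.0242) and without DMSO replicate 1 and GSK591 replicate 3 (0.0113) and with no filter on low counts (0.00053). HSPE1 fell in both, a log2 change of -0.16 ± 0.06 (edgeR adjusted p = 0.0281) in GSK591 and -0.25 ± 0.06 (edgeR adjusted p = 0.00333) in MS023, but the GSK591 call ended in 10 of 20 alternatives (0.000404 to 0.214), including without DMSO replicate 2 (0.214), without GSK591 replicate 1 (0.0706), without GSK591 replicate 2 (0.094) and without GSK591 replicate 3 (0.0771). Of the HSPE1 windows of 75 bases, 22.3% also lie in other genes, most often the read-through gene HSPE1-MOB4, as do 10.1% of those of HSPD1, most often the pseudogene HSPD1P1. HSPA9, the HSP70 of the mitochondrial matrix, stood at 620.0, 659.8 and 635 CPM in the DMSO libraries, 598, 595 and 628 in GSK591 and 638, 625 and 631 in MS023. It passed in neither inhibitor, at -0.07 ± 0.03 (edgeR adjusted p = 0.0777) and -0.02 ± 0.03 (edgeR adjusted p = 0.721). It passed in GSK591 as a fall without DMSO replicate 1 and GSK591 replicate 3 (0.0272).

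HSPB8 (ENSG00000152137, hg19 chromosome 12, 119616447 to 119658936), a small heat shock protein that works with BAG3 to send aggregates to autophagy, had the largest rise of any chaperone gene in GSK591. It stood at 9.75, 10.6 and 9.94 CPM in the DMSO libraries, 29.7, 29.5 and 29 in GSK591 and 13.6, 13.1 and 13.7 in MS023. The 3 groups were fully apart, with all GSK591 libraries highest and all MS023 libraries between them and DMSO. The log2 change was 1.54 ± 0.05 (edgeR adjusted p = 7.85e-12) in GSK591, 2.91-fold, and 0.41 ± 0.05 (edgeR adjusted p = 1.53e-05) in MS023, 1.33-fold. MS023 lay below GSK591 at -1.12 ± 0.05 (edgeR adjusted p = 5.71e-11). Its partner BAG3 also rose in GSK591, as given with the BAG genes.

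HSPB1 (HSP27), the most abundant small heat shock gene per length, stood at 233, 219 and 221 CPM in the DMSO libraries, 223, 196 and 211 in GSK591 and 237, 233 and 237 in MS023. The groups overlapped against DMSO, at -0.10 ± 0.05 (edgeR adjusted p = 0.0821) and 0.07 ± 0.05 (edgeR adjusted p = 0.215), while MS023 lay above GSK591 by 0.17 ± 0.05 (edgeR adjusted p = 0.00508). The GSK591 difference passed as a fall without GSK591 replicate 1 (0.0331) and in FPKM (0.0176 to 0.0329). HSPB11, an intraflagellar transport protein in spite of its name, stood at 20.1, 24.4 and 21.1 CPM in the DMSO libraries, 16.3, 17.1 and 18.1 in GSK591 and 23.9, 21.3 and 22.04 in MS023. It fell in GSK591, a log2 change of -0.35 ± 0.07 (edgeR adjusted p = 0.000619). Of the rarer small heat shock genes, HSPB6 differed by 0.41 ± 0.31 (edgeR adjusted p = 0.266) and 0.10 ± 0.32 (edgeR adjusted p = 0.816). HSPB9 had 12 counts over the DMSO, 31 over the GSK591 and 34 over the MS023 libraries and rose in both, by 1.38 ± 0.48 (edgeR adjusted p = 0.0203) and 1.39 ± 0.47 (edgeR adjusted p = 0.0227). Both HSPB9 calls ended when single libraries were left out, in GSK591 without DMSO replicate 1 (0.0589), without DMSO replicate 3 (0.065), without GSK591 replicate 2 (0.115) and without DMSO replicate 1 and GSK591 replicate 3 (0.0977), and in MS023 without DMSO replicate 1 (0.0639), without DMSO replicate 3 (0.0731), without MS023 replicate 1 (0.078), without MS023 replicate 2 (0.0663) and without DMSO replicate 1 and GSK591 replicate 3 (0.0688).

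J proteins choose the substrates of HSP70 and start its ATP use. Of the 4 class A genes, 3 rose in GSK591, beside 30.1% of all genes. DNAJA1, a cytosolic one, stood at 339.9, 373 and 334 CPM in the DMSO libraries, 394, 395 and 387 in GSK591 and 321, 306 and 313 in MS023. None of its groups overlapped, and it rose by 0.17 ± 0.04 (edgeR adjusted p = 0.00363) in GSK591 and fell, a log2 change of -0.15 ± 0.04 (edgeR adjusted p = 0.00818) in MS023. The fall was not called without DMSO replicate 2 (0.0752) and without MS023 replicate 2 (0.0572), and neither the rise nor the fall held in every FPKM fit (adjusted p up to 0.093 and 0.0884). DNAJA2 rose by 0.14 ± 0.03 (edgeR adjusted p = 0.00277) and the mitochondrial DNAJA3 by 0.09 ± 0.03 (edgeR adjusted p = 0.0129) in GSK591. In MS023 they differed by 0.07 ± 0.03 (edgeR adjusted p = 0.0781) and 0.07 ± 0.03 (edgeR adjusted p = 0.0602). DNAJA2 passed there as a rise without DMSO replicate 1 (0.0274), without GSK591 replicate 1 (0.0389), without GSK591 replicate 3 (0.0493) and without DMSO replicate 1 and GSK591 replicate 3 (0.0377), and DNAJA3 without DMSO replicate 2 (0.0413), without GSK591 replicate 1 (0.0342) and without GSK591 replicate 3 (0.0409). DNAJA4, with 210 counts in all, differed by -0.04 ± 0.24 (edgeR adjusted p = 0.8995) and -0.07 ± 0.24 (edgeR adjusted p = 0.835).

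Of 10 tested class B genes, 3 rose and 3 fell in GSK591, and 1 rose and 3 fell in MS023. Of all genes, 30.1% rose and 32.4% fell in GSK591, and 25.1% and 25.9% in MS023. DNAJB4 (ENSG00000162616, hg19 chromosome 1, 78444859 to 78483648), a cytosolic partner of HSP70, stood at 40.7, 42.4 and 37.6 CPM in the DMSO libraries, 73.8, 79.1 and 74 in GSK591 and 36.2, 35.2 and 35.1 in MS023. GSK591 lay far above both other groups, 0.91 ± 0.05 (edgeR adjusted p = 4.31e-10), and MS023 slightly below DMSO, -0.18 ± 0.05 (edgeR adjusted p = 0.00533). The MS023 fall was not called without DMSO replicate 2 (0.0522) or in FPKM (0.303 to 0.4897). DNAJB1, the main heat-inducible J protein, stood at 108, 105 and 99.3 CPM in the DMSO libraries, 111, 106 and 105 in GSK591 and 118, 117 and 120.3 in MS023. In GSK591 it overlapped with DMSO, 0.05 ± 0.04 (edgeR adjusted p = 0.292), although it passed as a rise after scaling to library totals (0.0251) and with a 1 CPM minimum (0.0251), and it rose by 0.19 ± 0.04 (edgeR adjusted p = 0.000593) in MS023. DNAJB1 overlaps TECR, which had 23301 counts beside its 41465.

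DNAJB11 (ENSG00000090520, hg19 chromosome 3, 186285192 to 186315061), the J protein partner of BiP in the endoplasmic reticulum lumen, stood at 73.3, 78.9 and 78.3 CPM in the DMSO libraries, 54.9, 51.01 and 53.3 in GSK591 and 79.1, 78.1 and 75.6 in MS023. It fell in GSK591, a log2 change of -0.53 ± 0.04 (edgeR adjusted p = 3.77e-08) and differed in MS023 by 0.01 ± 0.04 (edgeR adjusted p = 0.787), with no GSK591 library reaching the others. DNAJB12, a J protein of the endoplasmic reticulum membrane, fell in GSK591, a log2 change of -0.32 ± 0.04 (edgeR adjusted p = 1.73e-06) and differed by -0.05 ± 0.03 (edgeR adjusted p = 0.287) in MS023. Its close relative DNAJB14 fell in MS023, a log2 change of -0.25 ± 0.05 (edgeR adjusted p = 0.000399), and differed by -0.10 ± 0.05 (edgeR adjusted p = 0.0687) in GSK591, where it passed as a fall without DMSO replicate 3 (0.00852). DNAJB5 stood at 5.19, 4.55 and 5.34 CPM in the DMSO libraries, 4.22, 3.69 and 3.903 in GSK591 and 5.03, 5.28 and 4.94 in MS023. It fell in GSK591, a log2 change of -0.35 ± 0.10 (edgeR adjusted p = 0.00515), a call that ended without DMSO replicate 1 and GSK591 replicate 3 (0.0539). DNAJB2 rose in GSK591 by 0.20 ± 0.05 (edgeR adjusted p = 0.00268), but not in FPKM (0.0629 to 0.0981).

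DNAJB6, a potent suppressor of polyglutamine aggregation, stood at 97.4, 95.5 and 98.3 CPM in the DMSO libraries, 94.9, 94.6 and 96.4 in GSK591 and 95.8, 87.3 and 85.6 in MS023. The groups overlapped, and it differed by -0.03 ± 0.04 (edgeR adjusted p = 0.574) in GSK591 and was called lower in MS023 at -0.12 ± 0.04 (edgeR adjusted p = 0.0234). That call ended in 13 of 20 alternatives (0.00159 to 0.471), including without DMSO replicate 1 (0.0886), without DMSO replicate 2 (0.0558), without DMSO replicate 3 (0.0788), without GSK591 replicate 1 (0.0625), without GSK591 replicate 3 (0.0652), without MS023 replicate 2 (0.117), without MS023 replicate 3 (0.151) and without DMSO replicate 1 and GSK591 replicate 3 (0.101), and in FPKM the difference was above zero, at 0.12 (adjusted p = 0.279 to 0.471). The rare DNAJB7 had 40, 69 and 64 counts over the DMSO, GSK591 and MS023 libraries and was called higher in GSK591, 0.83 ± 0.28 (edgeR adjusted p = 0.0178). It lies within XPNPEP3, which had 27901 counts beside its 173, and its call ended without GSK591 replicate 1 (0.0606), without GSK591 replicate 3 (0.0608) and without DMSO replicate 1 and GSK591 replicate 3 (0.117). DNAJB13, with 189 counts, differed by 0.68 ± 0.36 (edgeR adjusted p = 0.117) in GSK591, where it passed as a rise without DMSO replicate 2 (0.00186), and by 0.03 ± 0.39 (edgeR adjusted p = 0.962) in MS023.

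Of 24 tested class C genes, the most varied J proteins, 5 rose and 9 fell in GSK591, and 4 rose and 8 fell in MS023. The shares of all genes were 30.1% higher and 32.4% lower in GSK591, and 25.1% and 25.9% in MS023. DNAJC6 (auxilin, which recruits HSP70 to clathrin coats) stood at 13.1, 14.6 and 12.6 CPM in the DMSO libraries, 22.3, 22.9 and 22.8 in GSK591 and 14.3, 17.3 and 16.5 in MS023. The GSK591 libraries were well above the rest, 0.75 ± 0.07 (edgeR adjusted p = 4.24e-07), and MS023 was called slightly higher than DMSO, 0.25 ± 0.07 (edgeR adjusted p = 0.0108), with overlapping libraries and a call that ended without DMSO replicate 3 (0.0575) and without MS023 replicate 2 (0.064). DNAJC5, the cysteine string protein of secretory vesicles, stood at 72.4, 68.1 and 68.3 CPM in the DMSO libraries, 84.7, 79.9 and 78.5 in GSK591 and 90.8, 95.9 and 92.7 in MS023. It rose in both, by 0.22 ± 0.04 (edgeR adjusted p = 0.000206) and 0.42 ± 0.04 (edgeR adjusted p = 6.1e-07). DNAJC2, a J protein bound to ribosomes, rose in GSK591 by 0.33 ± 0.04 (edgeR adjusted p = 9.01e-06) and differed by 0.01 ± 0.04 (edgeR adjusted p = 0.8499) in MS023. It overlaps PSMC2, which had 45008 counts beside its 21398.

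DNAJC16 rose in GSK591 by 0.44 ± 0.05 (edgeR adjusted p = 4.18e-06), with MS023 at -0.02 ± 0.05 (edgeR adjusted p = 0.819). It overlaps AGMAT, which had 6941 counts beside its 15030. DNAJC18 stood at 8.13, 9.06 and 8.02 CPM in the DMSO libraries, 10.4, 11.4 and 11.4 in GSK591 and 9.27, 10.2 and 8.86 in MS023. It rose in GSK591 by 0.40 ± 0.08 (edgeR adjusted p = 0.000313). Its FPKM went another way: they were 2.93, 5.05 and 4.72 FPKM in the DMSO libraries, 4.13, 4.69 and 4.36 in GSK591 and 2.88, 2.57 and 2.34 in MS023. On that scale the GSK591 rise was not called (0.698 to 0.831), and MS023 fell, a log2 change of -0.52 with a pseudocount of 1 (limma adjusted p = 0.017), where the counts gave 0.16 ± 0.08 (edgeR adjusted p = 0.0884).

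DNAJC22 and DNAJC21 fell in GSK591 and rose in MS023. DNAJC22 (ENSG00000178401, hg19 chromosome 12, 49740700 to 49751309), a membrane J protein, stood at 65.3, 68.9 and 66.8 CPM in the DMSO libraries, 52.9, 51.1 and 51.9 in GSK591 and 85.4, 81.3 and 80.05 in MS023. No groups overlapped, at -0.37 ± 0.04 (edgeR adjusted p = 8.92e-07) in GSK591 and 0.30 ± 0.04 (edgeR adjusted p = 1.34e-05) in MS023. The GSK591 fall was not called in FPKM (0.253 to 0.297). DNAJC21, which acts in the assembly of the large ribosomal subunit, stood at 71.8, 71.6 and 68.4 CPM in the DMSO libraries, 63.7, 67.6 and 61.97 in GSK591 and 84.98, 83.9 and 87.2 in MS023, and its groups did not overlap either. It changed by -0.13 ± 0.04 (edgeR adjusted p = 0.00913) and 0.27 ± 0.04 (edgeR adjusted p = 4.06e-05). The GSK591 call of DNAJC21 ended without DMSO replicate 1 (0.0574), without DMSO replicate 2 (0.0552), without GSK591 replicate 1 (0.0607), without GSK591 replicate 3 (0.111) and without DMSO replicate 1 and GSK591 replicate 3 (0.183), and its MS023 call in FPKM (0.114 to 0.158).

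Several class C genes fell under both inhibitors. DNAJC12, a partner of the aromatic amino acid hydroxylases, stood at 65.3, 66.2 and 63.02 CPM in the DMSO libraries, 48.98, 49.1 and 53.6 in GSK591 and 42.05, 40.4 and 40.4 in MS023. It fell, a log2 change of -0.36 ± 0.04 (edgeR adjusted p = 3.63e-06) and -0.66 ± 0.04 (edgeR adjusted p = 1.14e-08). MS023 was lowest and no groups overlapped. DNAJC9, a histone chaperone that brings HSP70 to histones H3 and H4, stood at 23.3, 25.1 and 24.9 CPM in the DMSO libraries, 17.2, 18.3 and 19.6 in GSK591 and 22.8, 19.6 and 19.8 in MS023. It fell, a log2 change of -0.41 ± 0.07 (edgeR adjusted p = 7.26e-05) and -0.24 ± 0.07 (edgeR adjusted p = 0.00721). The MS023 fall was not called in FPKM (0.256 to 0.401), and DNAJC9 overlaps MRPS16, which had 41409 counts beside its 8051. DNAJC8, found in spliceosomes, fell, a log2 change of -0.41 ± 0.05 (edgeR adjusted p = 1.75e-06) and -0.20 ± 0.05 (edgeR adjusted p = 0.00195). DNAJC14 fell, a log2 change of -0.37 ± 0.06 (edgeR adjusted p = 4.5e-05) and -0.28 ± 0.06 (edgeR adjusted p = 0.000752), with 26.9% of its windows of 75 bases also in other genes. It overlaps ORMDL2, which had 7851 counts beside its 9120. DNAJC24, a cofactor of diphthamide synthesis, fell, a log2 change of -0.30 ± 0.05 (edgeR adjusted p = 0.000196) and -0.15 ± 0.05 (edgeR adjusted p = 0.03), and the second call ended without DMSO replicate 2 (0.223), without GSK591 replicate 1 (0.0584), without MS023 replicate 2 (0.107) and without MS023 replicate 3 (0.0897).

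Other class C genes passed in a single comparison with DMSO. DNAJC30, a mitochondrial J protein, stood at 8.32, 8.45 and 8.08 CPM in the DMSO libraries, 7.58, 7.88 and 7.35 in GSK591 and 6.19, 5.36 and 4.89 in MS023. It fell in MS023, a log2 change of -0.59 ± 0.09 (edgeR adjusted p = 4.78e-05), with GSK591 at -0.12 ± 0.08 (edgeR adjusted p = 0.212). It overlaps WBSCR22, which had 22656 counts beside its 2677. DNAJC4 stood at 12.1, 12.1 and 11.6 CPM in the DMSO libraries, 10.6, 10.4 and 12.6 in GSK591 and 8.62, 7.49 and 8.296 in MS023. It fell in MS023, a log2 change of -0.55 ± 0.08 (edgeR adjusted p = 5.91e-05), with GSK591 at -0.09 ± 0.08 (edgeR adjusted p = 0.358). DNAJC4 overlaps NUDT22, which had 3516 counts beside its 3929. DNAJC11, of the mitochondrial outer membrane, was called lower in MS023 at -0.13 ± 0.04 (edgeR adjusted p = 0.0172), a call that ended without DMSO replicate 1 (0.0824), without DMSO replicate 3 (0.0504), without MS023 replicate 3 (0.0802) and without DMSO replicate 1 and GSK591 replicate 3 (0.131). DNAJC10, a disulfide reductase of the endoplasmic reticulum, fell in GSK591, a log2 change of -0.23 ± 0.04 (edgeR adjusted p = 0.000196), but not in FPKM (0.0706 to 0.159). DNAJC19, of the mitochondrial import motor, was called lower in GSK591 at -0.26 ± 0.08 (edgeR adjusted p = 0.0113) with overlapping libraries, a call that ended without DMSO replicate 2 (0.0896) and without GSK591 replicate 1 (0.0704). The remaining 7, DNAJC1, DNAJC7, DNAJC13, DNAJC17, DNAJC25, DNAJC27 and DNAJC28, passed the edgeR test against DMSO in neither inhibitor. For DNAJC25 in GSK591 the counts gave -0.15 ± 0.06 (edgeR adjusted p = 0.0596). Its FPKM lay further apart, at 11.2, 12.6 and 11.0 in the DMSO libraries and 7.22, 6.63 and 7.63 in GSK591. Of its windows of 75 bases, 11.4% also lie in other genes, most often DNAJC25-GNG10.

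TRiC is a ring chaperonin in which each of the 8 somatic subunits fills a fixed place, and CCT6B replaces CCT6A mainly in testis. Of the 9 genes, 5 fell and none rose in GSK591, and 8 fell and none rose in MS023. Of all genes tested, 32.4% fell and 30.1% rose in GSK591, and 25.9% fell and 25.1% rose in MS023. Their median log2 change was -0.23 and -0.20, beside 0.01 and -0.003 over all genes tested. The subunits did not move evenly. CCT7 (ENSG00000135624, hg19 chromosome 2, 73460548 to 73480149) stood at 552, 573 and 567 CPM in the DMSO libraries, 415, 391 and 417 in GSK591 and 455, 433 and 425 in MS023, with each treated library below each control. It changed by -0.47 ± 0.04 (edgeR adjusted p = 8.88e-08) and -0.36 ± 0.04 (edgeR adjusted p = 2.34e-06). CCT5 stood at 467, 505 and 486 CPM in the DMSO libraries, 388, 384 and 394 in GSK591 and 437, 415 and 413 in MS023. It changed by -0.32 ± 0.04 (edgeR adjusted p = 4.84e-06) and -0.20 ± 0.04 (edgeR adjusted p = 0.000533). CCT3 stood at 449, 467 and 452 CPM in the DMSO libraries, 485, 468 and 478 in GSK591 and 442, 435 and 437 in MS023. It passed in neither: its GSK591 libraries lay above the controls, 0.06 ± 0.03 (edgeR adjusted p = 0.108), and its MS023 libraries below, -0.06 ± 0.03 (edgeR adjusted p = 0.173). The GSK591 difference of CCT3 passed as a rise without DMSO replicate 2 (0.0322), after scaling to library totals (0.00659) and with a 1 CPM minimum (0.012).

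CCT4 changed by -0.23 ± 0.04 (edgeR adjusted p = 4.74e-05) and -0.24 ± 0.04 (edgeR adjusted p = 5.59e-05), and CCT8 changed by -0.29 ± 0.04 (edgeR adjusted p = 1.13e-05) and -0.17 ± 0.04 (edgeR adjusted p = 0.00178). CCT2 stood at 359, 372 and 350.2 CPM in the DMSO libraries, 334, 337 and 346 in GSK591 and 288, 283 and 283 in MS023, with MS023 lowest and no overlap. It changed by -0.09 ± 0.04 (edgeR adjusted p = 0.0457) and -0.34 ± 0.04 (edgeR adjusted p = 2.49e-06). The GSK591 call of CCT2 ended in 18 of 20 alternatives (0.0242 to 0.525), including without DMSO replicate 1 (0.109), without DMSO replicate 2 (0.262), without GSK591 replicate 1 (0.227), without GSK591 replicate 2 (0.128), without GSK591 replicate 3 (0.0725), without MS023 replicate 2 (0.106), without MS023 replicate 3 (0.109) and without DMSO replicate 1 and GSK591 replicate 3 (0.0867). CCT6A differed by -0.09 ± 0.05 (edgeR adjusted p = 0.114) in GSK591, where it passed as a fall without DMSO replicate 1 (0.0294) and without DMSO replicate 1 and GSK591 replicate 3 (0.0379), and was called lower in MS023 at -0.14 ± 0.05 (edgeR adjusted p = 0.0194) with overlapping libraries. The MS023 call of CCT6A ended without DMSO replicate 2 (0.152), without MS023 replicate 2 (0.114) and without MS023 replicate 3 (0.0665). TCP1 differed by -0.05 ± 0.04 (edgeR adjusted p = 0.317) and was called lower in MS023 at -0.11 ± 0.04 (edgeR adjusted p = 0.0491), also with overlapping libraries. That call ended in 16 of 20 alternatives (0.0136 to 0.413), including without DMSO replicate 2 (0.254), without DMSO replicate 3 (0.0892), without GSK591 replicate 1 (0.0996), without GSK591 replicate 2 (0.0548), without GSK591 replicate 3 (0.0813), without MS023 replicate 2 (0.1902) and without MS023 replicate 3 (0.196). CCT6B, low at 2.19, 1.71 and 2.204 CPM in the DMSO libraries, 1.65, 1.81 and 1.55 in GSK591 and 1.03, 0.911 and 0.846 in MS023, fell in MS023, a log2 change of -1.11 ± 0.17 (edgeR adjusted p = 7.37e-05) and differed by -0.28 ± 0.16 (edgeR adjusted p = 0.138) in GSK591. It overlaps LIG3, which had 24337 counts beside its 576.

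**Figure D4:**
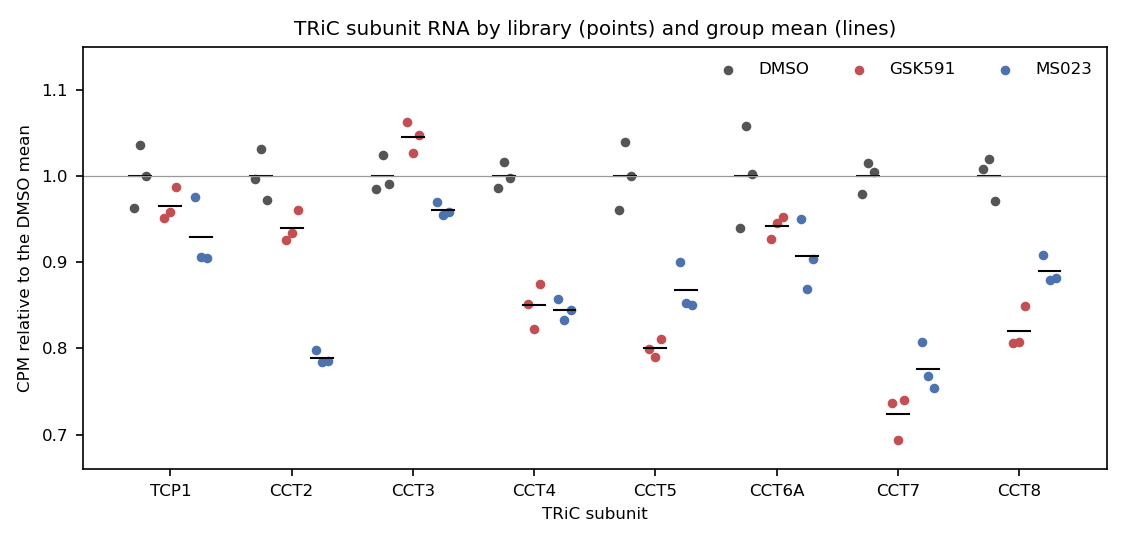
The CPM of each of the 8 abundant TRiC subunits in every library, relative to the DMSO mean of that subunit (vertical axis), with a line at each group mean. CCT7 lies lowest in GSK591 and CCT2 and CCT7 lowest in MS023, CCT3 lies above its controls in GSK591, and the MS023 libraries of TCP1 and CCT6A reach into their control range.

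BAG proteins release nucleotide from HSP70 and couple it to degradation, survival or nuclear functions. Of the 6 genes, 1 rose and 3 fell in GSK591, and 1 fell in MS023. The shares of all genes were 30.1% and 32.4% in GSK591, and 25.9% fell in MS023. BAG3, a target of HSF1 that joins HSPB8 to HSP70, stood at 74.3, 72.6 and 71.3 CPM in the DMSO libraries, 91.5, 91.3 and 85.01 in GSK591 and 73.1, 71.6 and 70.5 in MS023, and all GSK591 libraries were above the others at 0.30 ± 0.04 (edgeR adjusted p = 6.88e-06), with MS023 at -0.02 ± 0.04 (edgeR adjusted p = 0.686). BAG4 stood at 78.3, 78.3 and 74.3 CPM in the DMSO libraries, 56.7, 55.6 and 54.9 in GSK591 and 71.05, 75.1 and 75.8 in MS023. It fell in GSK591, a log2 change of -0.47 ± 0.04 (edgeR adjusted p = 7.57e-08), with MS023 at -0.06 ± 0.04 (edgeR adjusted p = 0.223). BAG1, which links HSP70 to the proteasome, stood at 82.4, 75.5 and 74.7 CPM in the DMSO libraries, 60.2, 60.1 and 60.99 in GSK591 and 77.2, 77.3 and 78.5 in MS023. It fell in GSK591, a log2 change of -0.36 ± 0.04 (edgeR adjusted p = 1.73e-06), with MS023 at 0.00 ± 0.04 (edgeR adjusted p = 0.945). For both, no GSK591 library reached the range of the others. BAG2, an inhibitor of the ubiquitin ligase CHIP, fell in both, a log2 change of -0.21 ± 0.04 (edgeR adjusted p = 0.000224) and -0.20 ± 0.04 (edgeR adjusted p = 0.000395). It overlaps RAB23, which had 9433 counts beside its 19250. BAG5 differed by -0.04 ± 0.04 (edgeR adjusted p = 0.3404) and 0.04 ± 0.04 (edgeR adjusted p = 0.3101), and BAG6, which guards tail-anchored proteins, differed by -0.08 ± 0.05 (edgeR adjusted p = 0.239) and -0.03 ± 0.05 (edgeR adjusted p = 0.695). BAG6 passed in GSK591 as a fall in the filtered FPKM fits (0.0415 to 0.0419).

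Set directly against each other, the inhibitors differed most in 5 genes that were higher in GSK591: HSPA2, HSPA12A, HSPB8, DNAJB4 and CCT6B, the last at -0.83 ± 0.17 (edgeR adjusted p = 0.000699). The HSP110 gene HSPA4L differed by -0.74 ± 0.04 (edgeR adjusted p = 6.76e-10), DNAJC6 differed by -0.50 ± 0.07 (edgeR adjusted p = 1.92e-05), and HSPH1 differed by -0.47 ± 0.04 (edgeR adjusted p = 5.14e-08). Among genes of at least 1 CPM that were higher in MS023, DNAJC22 led with 0.66 ± 0.04 (edgeR adjusted p = 9.61e-10), then DNAJB11 with 0.55 ± 0.04 (edgeR adjusted p = 2.01e-08), BAG4 with 0.41 ± 0.04 (edgeR adjusted p = 2.41e-07), DNAJC21 with 0.41 ± 0.04 (edgeR adjusted p = 3.43e-07), HSPB11 with 0.39 ± 0.07 (edgeR adjusted p = 0.000258) and DNAJB5 with 0.37 ± 0.10 (edgeR adjusted p = 0.00325). BAG1 and HSPA1A followed with 0.36 ± 0.04 (edgeR adjusted p = 1.24e-06) and 0.34 ± 0.05 (edgeR adjusted p = 6.29e-05). Both HSP90 genes and all 3 mitochondrial genes missed the threshold, with HSP90AA1 at -0.06 ± 0.03 (edgeR adjusted p = 0.125), HSP90AB1 at 0.05 ± 0.03 (edgeR adjusted p = 0.108), HSPD1 at -0.09 ± 0.05 (edgeR adjusted p = 0.113), HSPE1 at -0.08 ± 0.06 (edgeR adjusted p = 0.245) and HSPA9 at 0.06 ± 0.03 (edgeR adjusted p = 0.1598). Of these, HSP90AA1 passed without DMSO replicate 2 (0.0197) and HSPD1 without DMSO replicate 1 (0.0463) and without MS023 replicate 1 (0.0233), as lower in MS023, and HSP90AB1 without MS023 replicate 1 (0.046) as higher. In TRiC, CCT2 was lower in MS023 at -0.25 ± 0.04 (edgeR adjusted p = 2.42e-05) and CCT3 at -0.12 ± 0.03 (edgeR adjusted p = 0.00519), while CCT5, CCT7 and CCT8 were higher by 0.12 ± 0.04, 0.10 ± 0.04 and 0.12 ± 0.04, calls that each ended without single libraries (CCT5 without GSK591 replicate 2 (0.0696) and without MS023 replicate 1 (0.0617), CCT7 without GSK591 replicate 2 (0.189), without MS023 replicate 1 (0.114) and without MS023 replicate 2 (0.0792), CCT8 without GSK591 replicate 1 (0.0526), without GSK591 replicate 2 (0.063) and without MS023 replicate 3 (0.0512)).

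Of the 16 genes with a pair of units in the window searched, 3 hold a run of 3 units, and 14 of the 16 were tested. A pair stood in 11.7% of all promoters searched, so a pair alone does not mark a gene as a target of HSF1. In GSK591, 4 of them rose (HSPA8, HSPB8, DNAJA1 and DNAJB7), 3 fell (HSPA1A, HSPA1L and BAG2) and 7 passed in neither direction. The match of HSPA1A and that of HSPA1L are the same site read on opposite strands, so the 16 genes are not 16 separate sites. The DNAJB7 call ended without single libraries. In MS023, 1 rose, HSPB8, and 6 fell: BAG2, CCT6B, DNAJA1, DNAJB6, HSPA1L and TCP1. As given with each gene, the calls of DNAJA1, DNAJB6 and TCP1 ended in some alternatives, for DNAJB6 and TCP1 in most of them. The libraries of DNAJB6 and TCP1 also overlapped with DMSO. CCT6B overlaps LIG3 and HSPA1L overlaps HSPA1A, each with far more counts, so these falls are uncertain too. Of all genes tested, 30.1% rose and 32.4% fell in GSK591, and 25.1% rose and 25.9% fell in MS023.

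Partner genes outside the set were counted from 5 lists, to be read against the same shares of all genes (30.1% higher and 32.4% lower in GSK591, 25.1% and 25.9% in MS023). The list of HSF1 regulators and stress-inducible partners shares CHORDC1 with the HSP90 co-chaperones and SERPINH1 with the organelle chaperones, so these are counted in both. HSPA5, DNAJB9 and DNAJC3, left out of the set, are counted among the organelle chaperones. Of 24 HSP90 co-chaperones, 5 rose and 12 fell in GSK591, and 7 rose and 7 fell in MS023. CHORDC1 rose by 0.41 ± 0.04 (edgeR adjusted p = 4.01e-07) in GSK591 and fell, a log2 change of -0.27 ± 0.04 (edgeR adjusted p = 4.81e-05) in MS023, and the PIKK assembly factor TTI1 fell, a log2 change of -0.55 ± 0.04 (edgeR adjusted p = 8.86e-09) in GSK591. The immunophilins FKBP4 and FKBP5 fell in GSK591, a log2 change of -0.42 ± 0.04 (edgeR adjusted p = 4.66e-07) and -0.36 ± 0.04 (edgeR adjusted p = 1.59e-06), and FKBP5 rose in MS023 by 0.27 ± 0.04 (edgeR adjusted p = 3.97e-05). Of 11 HSP70 cofactors and J proteins under other symbols, 4 rose and 5 fell in GSK591, and 3 fell in MS023. HSPBAP1, which binds HSPB1, rose by 0.86 ± 0.09 (edgeR adjusted p = 5.57e-07) in GSK591.

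Of 14 prefoldin and tubulin folding genes, which feed TRiC and receive its products, 1 rose and 10 fell in GSK591, and 1 rose and 3 fell in MS023. Their median log2 change was -0.23 in GSK591 and -0.04 in MS023. PFDN1 and PFDN4 fell in GSK591, a log2 change of -0.51 ± 0.05 (edgeR adjusted p = 9.45e-07) and -0.50 ± 0.05 (edgeR adjusted p = 1.2e-06). In GSK591 PFDN5 differed by -0.04 ± 0.05 (edgeR adjusted p = 0.496) and fell in MS023, a log2 change of -0.34 ± 0.05 (edgeR adjusted p = 2.38e-05). Of 17 organelle chaperones and proteases, 2 rose and 12 fell in GSK591 (median -0.37), and 5 rose and 4 fell in MS023 (median -0.04). PDIA4 and HYOU1, folding factors of the endoplasmic reticulum like DNAJB11, fell in GSK591, a log2 change of -0.71 ± 0.04 (edgeR adjusted p = 5.9e-10) and -0.67 ± 0.03 (edgeR adjusted p = 3.3e-10), and HYOU1 rose in MS023 by 0.36 ± 0.03 (edgeR adjusted p = 4.91e-07). HSP90B1, the HSP90 of that compartment, fell in both, a log2 change of -0.45 ± 0.04 (edgeR adjusted p = 8.54e-08) and -0.40 ± 0.04 (edgeR adjusted p = 7.01e-07). The collagen chaperone SERPINH1 rose in both, by 0.65 ± 0.06 (edgeR adjusted p = 5.59e-07) and 0.30 ± 0.06 (edgeR adjusted p = 0.00137), while COL1A1, counted among the fibroblast markers, lay at 11.8, 10.8 and 12.4 CPM in the DMSO libraries, 8.08, 6.84 and 6.61 in GSK591 and 23.8, 26.6 and 24.7 in MS023; its part in the SERPINH1 result was not tested.

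Of 14 HSF1 regulators and stress-inducible partners, 7 rose and 4 fell in GSK591, and 2 rose and 4 fell in MS023. HMOX1, the heme oxygenase that several stress pathways induce, stood at 71.6, 75.7 and 70.9 CPM in the DMSO libraries, 177, 179.7 and 170.4 in GSK591 and 66.5, 71.1 and 74.1 in MS023. It rose in GSK591 by 1.27 ± 0.04 (edgeR adjusted p = 8.34e-12), with MS023 at -0.04 ± 0.04 (edgeR adjusted p = 0.408). The autophagy receptor SQSTM1 rose in both, by 0.90 ± 0.03 (edgeR adjusted p = 1.08e-11) and 0.62 ± 0.03 (edgeR adjusted p = 7.51e-10). MT2A, a metallothionein, fell in GSK591, a log2 change of -0.29 ± 0.05 (edgeR adjusted p = 0.000216), and the small heat shock protein CRYAB at -0.33 ± 0.11 (edgeR adjusted p = 0.0162), a call that ended without DMSO replicate 1 (0.0561), without DMSO replicate 2 (0.0759), without GSK591 replicate 1 (0.0798) and without DMSO replicate 1 and GSK591 replicate 3 (0.0621). RGS2 rose in GSK591 by 0.30 ± 0.06 (edgeR adjusted p = 0.000947), but not in unfiltered FPKM (0.0528), and fell in MS023, a log2 change of -1.07 ± 0.07 (edgeR adjusted p = 1.57e-08).

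The low-count filter left out 7 genes. DNAJC15, a mitochondrial J protein, had 7, 9 and 5 counts in the DMSO libraries, 6, 13 and 11 in GSK591 and 1, 1 and 0 in MS023. HSPB7 had 0, 0 and 1 counts in DMSO, 2, 3 and 1 in GSK591 and 12, 4 and 4 in MS023. DNAJB3 had 22 counts in all, HSPB3 5, HSPB2 4, and HSPA7 and DNAJB8 1 each.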

How the data were processed

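Total RNA of 9 A549 libraries was depleted of ribosomal RNA and sequenced in pairs, per the labels' protocols. The authors deposited 1 table of read counts per gene, unnormalised whole numbers, and 9 tables of FPKM per gene, per the file headers; the tool that made them is not stated. The submitters' processing notes name cutadapt, STAR, featureCounts, DESeq2 and hg19; the sources used here give no versions, annotation or strand setting, so counts of overlapping and antisense genes are uncertain. Gene symbols came from the FPKM tables by gene identifier. In R 4.3.3, edgeR 4.0.16 (filterByExpr with minimum count 10 and total 15, TMM, quasi-likelihood, group as the only term, all 9 libraries) tested 18292 genes, two-sided, with Benjamini-Hochberg adjustment. Errors of log2 changes are standard errors. CPM is after TMM scaling. Tested on simulated counts, the steps recovered nearly all large changes, missed most of the smallest, which are of the size of many changes reported here, and made more false calls than the threshold implies. Alternatives were other scalings and filters, DESeq2 1.42.0, a replicate block, only the 6 libraries compared, each library left out, DMSO 1 with GSK591 3 left out, and limma 3.58.1 on log2(FPKM + 1) or log2(FPKM + 0.1), also without the filter of 1 FPKM in 3 libraries. Shared sequence was the share of windows of 75 bases of the longest GENCODE v29 transcript found in other genes. Library depth was 31398075 to 51244525 counts.

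The members and lists were chosen with earlier results of these data known. Named were a fixed set of main chaperones, up to 12 members each way per comparison (adjusted p under 0.05, at least 1 CPM, no overlap), and up to 2 each way from each list. Other members were named to account for the set, after their values were seen.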

Additional observations from a re-analysis of the deposited data

Results flagged for a closer look

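The 8 genes below were called in opposite directions against DMSO by the inhibitors, and the direct test of MS023 against GSK591 passed for each. Higher in GSK591 and lower in MS023 were HSPA2, with a direct log2 difference of -1.82 ± 0.04 (edgeR adjusted p = 7.38e-14), HSPA12A, with -1.33 ± 0.05 (edgeR adjusted p = 2.93e-12), DNAJB4, with -1.09 ± 0.05 (edgeR adjusted p = 3.92e-11), HSPA4L, with -0.74 ± 0.04 (edgeR adjusted p = 6.76e-10), HSPH1, with -0.47 ± 0.04 (edgeR adjusted p = 5.14e-08), and DNAJA1, with -0.32 ± 0.04 (edgeR adjusted p = 1.14e-05). Lower in GSK591 and higher in MS023 were DNAJC22, with 0.66 ± 0.04 (edgeR adjusted p = 9.61e-10), and DNAJC21, with 0.41 ± 0.04 (edgeR adjusted p = 3.43e-07). For all 8 genes, no 2 of the 3 groups had overlapping libraries. How many of all genes tested were called in opposite directions was not counted, so the number found in the set has no background beside it. As given with each gene, calls against DMSO ended in some alternatives for HSPA12A, DNAJB4, HSPH1, DNAJA1, DNAJC22 and DNAJC21. The comparisons with DMSO use the same 3 control libraries, and no cause was tested.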

How the results depend on the processing

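Of the calls among the 78 tested genes, 31 of 48 in GSK591, 17 of 39 in MS023 and 31 of 48 between the inhibitors held in every alternative that gave a value. The number rising in GSK591 was 12 in limma on FPKM with either pseudocount, against 19, where 68 of the genes passed the filter. In MS023 it was 4 rising in each of the 3 FPKM fits, against 8, and 13 when scaled by total counts, while the number falling was 19 in the filtered FPKM fits and 14 without the filter, against 31. Leaving out each library in turn gave 18 to 23 higher and 24 to 30 lower in GSK591, 6 to 12 higher and 23 to 30 lower in MS023, and 21 to 28 higher and 20 to 23 lower in MS023 against GSK591. With a pseudocount of 0.1, log2 FPKM placed the median of all genes at -0.109 in GSK591 against DMSO and 0.106 in MS023 against GSK591.

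Directions turned in FPKM, with pseudocounts of 1 and 0.1. HSPA4 in MS023 was at -0.0780 and -0.0787, DNAJB6 at 0.116 and 0.118 in MS023 and 0.267 and 0.271 against GSK591, DNAJC18 in MS023 at -0.520 and -0.653, and the tubulin cofactor TBCE in GSK591 at -0.00372 and -0.00376. What turned them was not tested. With the replicate block, 19 rose and 27 fell in GSK591, 8 and 29 in MS023, and 24 and 21 between the inhibitors. Same-numbered libraries deviated from their group means with correlations of -0.43 to 0.26, so the numbers were not taken to pair libraries. The low-count filter left out 7 genes, and the unfiltered fits took in all 85.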
